A study of Mus musculus with 8 samples.

Results

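The comparison described here set tumors of caspase-12 deficient mice against normal colon of caspase-12 deficient mice. Its members were chosen by the labels: 4 of the 8 arrays of the series, 2 of deficient tumor and 2 of deficient normal colon, all hybridized with total RNA from C57BL/6 mice. The other 4 arrays were 2 of wild-type normal colon and 2 of wild-type tumor. They entered the same model and are used below only to show where the deficient pair differed. Each array was an Illumina MouseRef-8 v2 beadchip, on which a bead-bound oligonucleotide (a probe) reports the abundance of 1 transcript as a fluorescence intensity. Of 25697 probes, 13327 were above background on at least 2 of the 8 arrays and were tested. They covered 9341 named genes, each represented by its brightest probe. Levels below are log2 intensities after background correction and quantile normalization, and differences are deficient tumor minus deficient normal colon in log2 units, so that 1 unit is a doubling. The sources used here do not give the allele, the ages of the mice, how the tumors arose, where along the colon the tissue was taken or which arrays lay on 1 slide. The labels describe the arrays of a group only as replicates of one another, not as separate animals, so the p-values cover the spread among these arrays and that spread may be technical. The number of arrays limits the precision.

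Caspase-12 belongs to the inflammatory caspases, a family of cysteine proteases that includes the activator of interleukin-1 beta. It has been studied in mice as a modulator of inflammatory signalling. The colon is lined by a single layer of epithelium in which stem cells at the crypt base feed transit-amplifying progenitors, which mature into absorptive colonocytes, goblet cells and enteroendocrine cells near the surface. Colonocytes absorb salt, water and short-chain fatty acids and burn butyrate in their mitochondria. In inflamed or injured colon, cytokines of the interleukin-6 family act through the receptor subunit gp130 and the transcription factor STAT3 on epithelial survival and repair.

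A few promoters are shown because they belong to genes the results turn on and hold letters of transcription factor motifs. They come from RefSeq on GRCm38.p6, cover the 250 bases before the annotated start, 5′ to 3′ on the strand of the gene, and the matched letters are in capitals. The Il6 window, chr5:30012864-30013113 on the plus strand, holds GGATTTTCC, a match to the NF-kB pattern GGANTTTCC, and TGAGTCA, a match to the AP-1 pattern TGANTCA. One of the 2 annotated Il11 starts, chr7:4778142-4778391 on the minus strand, also holds TGAGTCA. The Socs3 window, chr11:117969367-117969616 on the minus strand, and the Icam1 window, chr9:21015690-21015939 on the plus strand, hold matches to the STAT pattern TTCNNNGAA, and the Icam1 window also holds GGAAATTCC, the reverse complement of a match to the NF-kB pattern. The Selenbp1 window, chr3:94932833-94933082 on the plus strand, holds CATAAA, the reverse complement of the CDX pattern TTTATG.
Il6: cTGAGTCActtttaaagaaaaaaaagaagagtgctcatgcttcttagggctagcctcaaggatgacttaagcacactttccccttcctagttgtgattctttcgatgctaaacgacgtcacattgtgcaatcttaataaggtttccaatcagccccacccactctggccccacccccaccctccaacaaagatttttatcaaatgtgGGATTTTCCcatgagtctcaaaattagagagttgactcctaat
Il11: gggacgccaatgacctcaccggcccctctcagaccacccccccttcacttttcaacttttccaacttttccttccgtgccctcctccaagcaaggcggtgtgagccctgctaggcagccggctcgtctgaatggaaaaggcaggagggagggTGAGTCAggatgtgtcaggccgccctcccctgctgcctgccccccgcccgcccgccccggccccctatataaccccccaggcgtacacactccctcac
Socs3: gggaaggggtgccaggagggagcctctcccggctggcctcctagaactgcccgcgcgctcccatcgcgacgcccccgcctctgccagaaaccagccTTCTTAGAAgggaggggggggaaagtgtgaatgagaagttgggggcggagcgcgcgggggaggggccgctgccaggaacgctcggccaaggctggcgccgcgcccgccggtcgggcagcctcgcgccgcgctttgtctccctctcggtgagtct
Icam1: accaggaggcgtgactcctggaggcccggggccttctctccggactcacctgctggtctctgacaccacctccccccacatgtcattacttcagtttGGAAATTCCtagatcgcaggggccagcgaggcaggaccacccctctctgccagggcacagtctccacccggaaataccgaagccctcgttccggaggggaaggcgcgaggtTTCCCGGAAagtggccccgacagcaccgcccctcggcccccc
Selenbp1: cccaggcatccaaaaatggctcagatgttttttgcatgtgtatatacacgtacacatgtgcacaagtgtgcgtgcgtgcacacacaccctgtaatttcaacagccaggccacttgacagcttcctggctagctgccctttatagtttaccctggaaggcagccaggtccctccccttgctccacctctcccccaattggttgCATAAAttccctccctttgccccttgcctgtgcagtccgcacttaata
Of all 32851 promoters in the table, searched on both strands over the same window, 1.07% held GGANTTTCC, 7.02% TTCNNNGAA, 6.75% TGANTCA and 10.8% TTTATG. Of the 7576 tested genes with a promoter the shares were 1.54%, 7.42%, 6.3% and 7.97% in the same order. The shares of genes count a gene when any of its annotated starts matched, so they are not in the same unit as the shares of promoters. Among the 676 called-higher genes with a promoter the shares were 3.25%, 8.58%, 10.2% and 8.43%, and among the 788 called-lower genes 1.52%, 5.96%, 8.25% and 9.52%. In all, 20 letter patterns were looked at with the expression results known, and no test was made. A match is only a run of letters and says nothing about whether a factor binds there.

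Casp12 itself gave little signal. It read 6.5 and 7.21 log2 units in deficient normal colon and 6.97 and 5.96 in deficient tumors, with overlapping groups (difference −0.39, limma adjusted p = 0.494). The wild-type arrays read between 5.73 and 5.88, below every deficient array. The sources used here do not say whether the probe lies in a deleted stretch, so it does not check the labels. The tissue label was checked on epithelial markers of the colon. All 9 of those tested (Krt8, Vil1, Car2, Krt19, Cdh17, Krt18, Cdx2, Cdx1 and Krt20) were above background on all 4 deficient arrays. Of the 9, 5 were lower in the deficient tumors (Cdx2, Car2, Krt20, Cdh17 and Vil1), Krt18 was higher and 3 did not pass. The brightest, the simple epithelial keratin Krt8, read 15.85 and 15.88 in deficient normal colon and 15.58 and 15.61 in deficient tumors.

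Markers of tissues other than colon mucosa were high on the deficient tumor arrays, and one of these arrays stood apart for them. Squamous epithelium is the layered lining found in skin and at the anal margin. Of its 33 tested markers 22 rose, 0 fell and 11 did not pass, beside 9.43% of all genes called higher and 10.5% lower. The median difference was 5.59, or 4.57 with genes below background in a group set at the bound on their fold. Of the 22, 4 were above background on the deficient tumor arrays alone, so that they were tested only through the group in which they were high. Their summed level was 12.83 on each deficient normal array, against 17.06 and 18.59 in deficient tumor replicates 1 and 2. Trp63, the master transcription factor of that lineage, read 4.82 and 4.87 in deficient normal colon and 10.36 and 12.60 in deficient tumors (at least 25.4-fold, adjusted p = 0.0465). The cornified envelope protein Lor read 7.19 and 6.79 against 13.87 and 14.34, and the groups did not overlap for either gene. With 1 array left out, counts here and below are over all tested genes of a group, not only those called with every array. The sample group that lost an array then held 1 array, so the spread in those fits came from the other sample groups. Without deficient normal replicates 1 or 2 the squamous count was 8, and without deficient tumor replicates 1 or 2 it was 19 and 14. Wild-type tumor replicate 1 shared the pattern, with a summed level of 17.21 against 13.38 in wild-type tumor replicate 2. The part of squamous epithelium in the rises given below, among them those of the repair, Notch, junction, retinoid and invasion groups, was not tested.

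Skeletal muscle markers were high on 1 of the 2 deficient tumor arrays. Of 15 tested markers 0 passed limma at the adjusted threshold. An unadjusted p under 0.05 was found for 3 of the 15, and for 4556 of all 13327 probes. The tumor replicates disagreed: the median difference from deficient normal colon was 6.00 in replicate 1 and 0.02 in replicate 2. The fast muscle troponin Tnnc2 read 14.44 in tumor replicate 1 and 5.56 in replicate 2, against 5.22 and 5.08 in deficient normal colon. Without tumor replicate 2 the deficient tumor group is 1 array, so a fit of that kind rests on replicate 1 alone for these genes. The summed level was 17.36 in tumor replicate 1 and between 11 and 13.51 on the other 7 arrays. Krt27, the 1 tested marker of 15 on the array for hair follicle and melanocytes, was 4.28 higher in tumor replicate 1 and 0.95 lower in replicate 2 than in deficient normal colon.

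**Figure D1:**
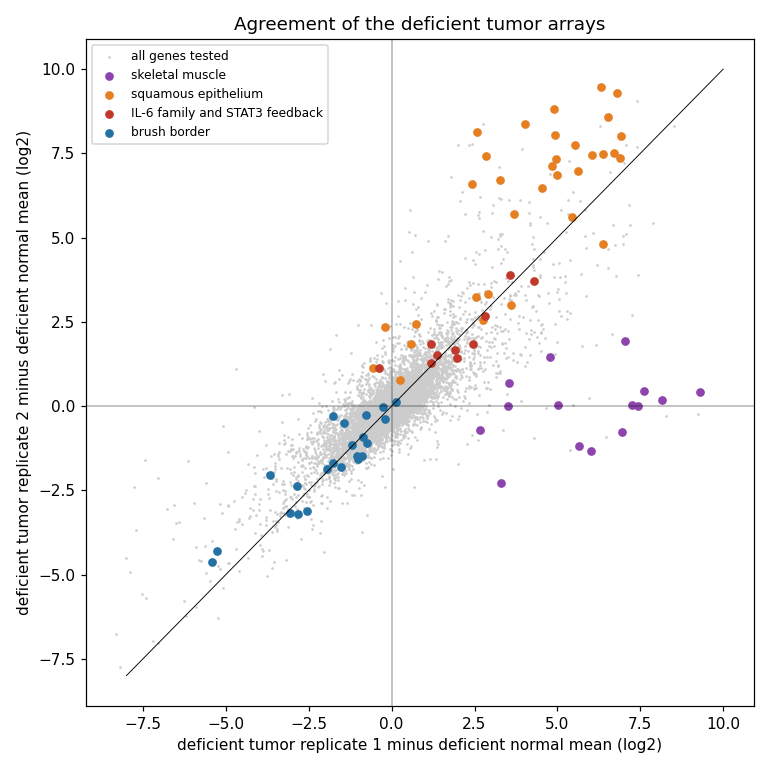
Log2 difference of each deficient tumor array from the deficient normal mean, replicate 1 on the x axis and replicate 2 on the y axis, 1 point per gene tested, with the line of equality. Squamous genes lie high on both axes, skeletal muscle genes lie to the right near 0 on the y axis (medians 6.00 and 0.02), and brush border and IL-6 family genes lie near the line.

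The deficient normal arrays stood apart in their Hox genes, which encode transcription factors whose expression along the gut follows position from front to back. These genes were singled out after their values were seen. Of 20 tested, 4 rose and 7 fell between deficient normal colon and deficient tumor. Of all 9341 genes, 9.43% were called higher and 10.5% lower. Between wild-type tumor and wild-type normal colon 0 of the 20 passed limma (0% of all genes). There 6 of the 20 had an unadjusted p under 0.05, as had 1154 of the 13327 probes. Hoxb6 read 9.92 and 9.36 in deficient normal colon, 4.92 and 5.98 in deficient tumors and between 5.00 and 5.19 on the 4 wild-type arrays. The deficient normal arrays thus stood alone, and the fall was at least 9.20-fold (adjusted p = 0.000808). Hoxb2, Hoxb4, Hoxb5, Hoxb7, Hoxc6 and Hoxd4 fell as well, with differences from −1.49 (Hoxb2) to −3.44 (Hoxb7), and in each of them, too, the deficient normal arrays lay above all 6 other arrays. Among the called Hox genes of both directions, only Hoxb6 and Hoxd4 kept the call whichever deficient array was left out.

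In the other direction, Hoxa9 read 6.46 and 6.83 in deficient normal colon and 9.11 and 8.30 in deficient tumors (at least 3.72-fold higher, adjusted p = 0.00899), beside 8.38 and 8.89 in wild-type normal colon. Hoxa5 rose by 1.10. Hoxd12 (at least 5.01-fold higher, adjusted p = 0.0121) and Hoxd13 (at least 2.1-fold higher, adjusted p = 0.0104), the hindmost members of their cluster, read 10.45 and 7.83, and 8.35 and 7.41, in the deficient tumors, and were also above 8 on both wild-type tumor arrays. Hoxd13 was the higher of these in the wild-type tumors, at 9.43 and 9.18. Position along the colon cannot be told apart from tumor against normal in the deficient pair where the deficient normal arrays alone differ, and its part in the results below was not tested. Of the 881 genes called higher, both deficient tumor arrays also lay above both wild-type normal arrays for 785 (89.1%) and below both for 27. Of the 979 called lower, they lay below both wild-type normal arrays for 823 (84.1%) and above both for 23. Over all genes tested, 35.9% lay above and 33.2% below the wild-type normal arrays in this way.

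**Figure D2:**
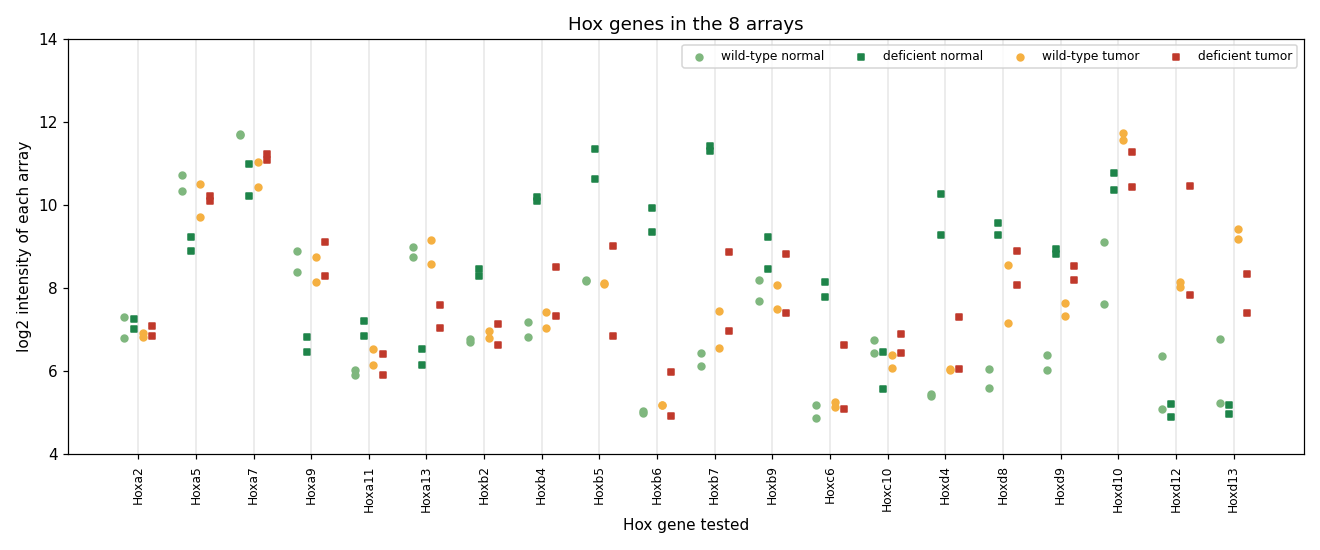
Log2 intensity of the 20 Hox genes tested on each of the 8 arrays, ordered by cluster, with squares for deficient and circles for wild-type arrays. The deficient normal squares stand above every other array for 10 genes, among them Hoxb2, Hoxb4, Hoxb5, Hoxb6, Hoxb7, Hoxc6 and Hoxd4, and below every other array for Hoxa5, Hoxa9, Hoxa13 and, by a narrow margin, Hoxd13.

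Of the 13327 probes, 1160 (8.7%) were called higher in deficient tumors and 1421 (10.7%) lower, a split that turned to 1276 higher and 1011 lower with the deposited log2 values. Of the 9341 genes, 1860 (19.9%) were called, 881 (9.43%) higher and 979 (10.5%) lower. Counts of the gene groups can be read against these shares. Both tumor arrays lay above both normal arrays for 31.8% of all genes and below for 32.6%. The median difference over all genes was 0.00456, the value against which the medians of gene groups below can be read. Of the called probes, 195 differed by over 4 log2 units, 128 of them upward, and the smallest called difference was 0.69. Of the genes, 598 were above background on both deficient tumor arrays and neither deficient normal array, of which 345 were called higher, and 162 were the reverse, of which 142 were called lower. A gene above background on the 2 deficient tumor arrays and no other passed the detection filter only through the group in which it was high: 179 genes did so, and 124 of them were called higher. For a probe that none of a group's arrays detected above background, "at least" gives a lower bound on the fold, made by setting each array of that group to the higher of its own value and its lowest value called above background. Of 2372 genes with 2 or more tested probes, 564 had a called probe. In 548 of these all probes pointed one way, and in 0 did called probes oppose each other.

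The leading rises included cytokine-response, adhesion and ion transport genes, and the leading falls were mostly genes of enzymes. The 12 rises and 12 falls with the largest moderated t were taken among genes above background on all 4 deficient arrays. The calls of all 24 held whichever of the 4 deficient arrays was left out. Beyond S100a8, Ifitm1, an interferon-induced membrane protein, read 7.61 and 8.08 in deficient normal colon and 11.55 and 11.15 in deficient tumors, and rose by 3.50 (SE 0.27, adjusted p = 0.000715). Tnfrsf12a, the receptor for the cytokine TWEAK, rose by 2.93 (SE 0.25) from 8.35 and 8.81 to 11.39 and 11.62. Marcksl1, a regulator of the actin cytoskeleton, rose by 4.16 (SE 0.36) from 8.35 and 8.64 to 12.98 and 12.33. In each of these genes the deficient tumors lay above all 6 other arrays.

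Icam1, the adhesion molecule to which leukocyte integrins bind and whose promoter is shown above, read 9.05 and 9 in deficient normal colon and 11.44 and 11.16 in deficient tumors (2.28, adjusted p = 0.00109). The chemokine Cxcl14 rose by 2.18 and Ms4a6d, a membrane protein of macrophages, by 1.95. Wfdc18, a secreted protein with a whey acidic protein domain, rose by 4.54. Slc7a5, the carrier of large neutral amino acids, rose from 9.35 and 8.77 to 11.50 and 11.57 (2.47, adjusted p = 0.00204). In these 5 genes too the deficient tumors lay above the other 6 arrays.

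Atp12a and Foxq1 took a different course. Atp12a, the proton-potassium pump of the distal colon, rose by 3.54 (adjusted p = 0.000753), from 7.46 and 7.59 in deficient normal colon to 11.23 and 10.89 in deficient tumors. The wild-type normal arrays read 13.69 and 12.97, so the deficient tumors lay above deficient but below wild-type normal colon. Foxq1, a forkhead transcription factor, rose by 4.66 (adjusted p = 0.00195) from 7.40 and 7.03 to 12.28 and 11.47. Wild-type normal colon read 10.70 and 9.38 for Foxq1, again far above deficient normal colon.

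Among the falls, Mep1a, a subunit of the brush border protease meprin, read 12.35 and 12.74 in deficient normal colon and 7.12 and 7.91 in deficient tumors (−5.03, SE 0.32, adjusted p = 0.000412). Selenbp1, a selenium-binding methanethiol oxidase, read 15.52 and 15.05 against 9.55 and 10.67 (−5.17, SE 0.44, adjusted p = 0.000771). Both were bright on the 4 wild-type arrays, with Mep1a between 11.82 and 12.26 and Selenbp1 between 14.49 and 15.30. Trpm6, the epithelial magnesium channel (−3.2), Cdhr2, a protocadherin that links microvilli (−3.02), and Edn2, an endothelin (−3.49), fell too. In each of these 5 genes the deficient tumors lay below all 6 other arrays.

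The other falls of this group were metabolic. They were Aldh1a1, which makes retinoic acid (−4.79), the methyltransferase-like Mettl7b (−5.02), the alanine aminotransferase Gpt (−4.03), the nucleotidase Entpd5 (−3.66), the carboxylesterase Ces1g (−4.08) and the mitochondrial arginase Arg2 (−3.05). Arg2 read 10.78 and 10.90 in deficient normal colon and 7.58 and 8.01 in deficient tumors. The wild-type arrays read 8.57 and 8.65 in normal colon and 7.49 and 7.21 in tumors. For Arg2 and Ces1g the deficient tumors did not lie below the wild-type tumors, and deficient normal colon was the highest group. In the other falls of this paragraph deficient normal colon was the highest group too. Deficient minus wild-type normal colon was −3.87 for S100a8, −2.83 for Wfdc18, −2.14 for Marcksl1 and 2.53 for Aldh1a1 (limma adjusted p from 0.00805 to 0.0395). That difference passed as well for Atp12a, Foxq1, Arg2 and Ces1g, and for no other of the leading genes. Cyp2c55 and S100a8, which lead this group by moderated t in each direction, differed by −7.54 and 7.12. S100a8 read 7.36 and 8.45 in deficient normal colon and 14.93 and 15.12 in deficient tumors. The wild-type arrays read 11.70 and 11.85 in normal colon and 10.71 and 9.50 in tumors for S100a8.

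**Figure D3:**
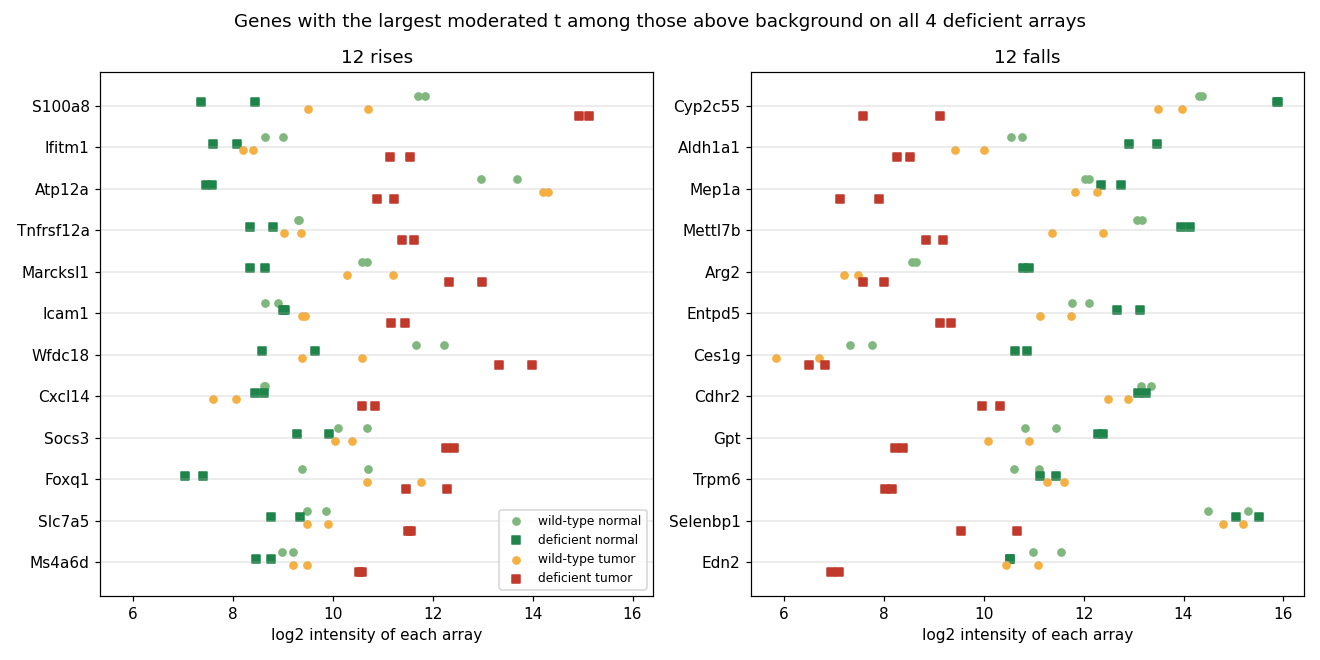
Log2 intensity on each of the 8 arrays of the 12 rises (left) and 12 falls (right) with the largest moderated t among genes above background on all 4 deficient arrays, squares for deficient and circles for wild-type arrays. The deficient tumors lie beyond every other array except for Atp12a and Foxq1 among the rises, and Arg2 and Ces1g among the falls.

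**Figure D4:**
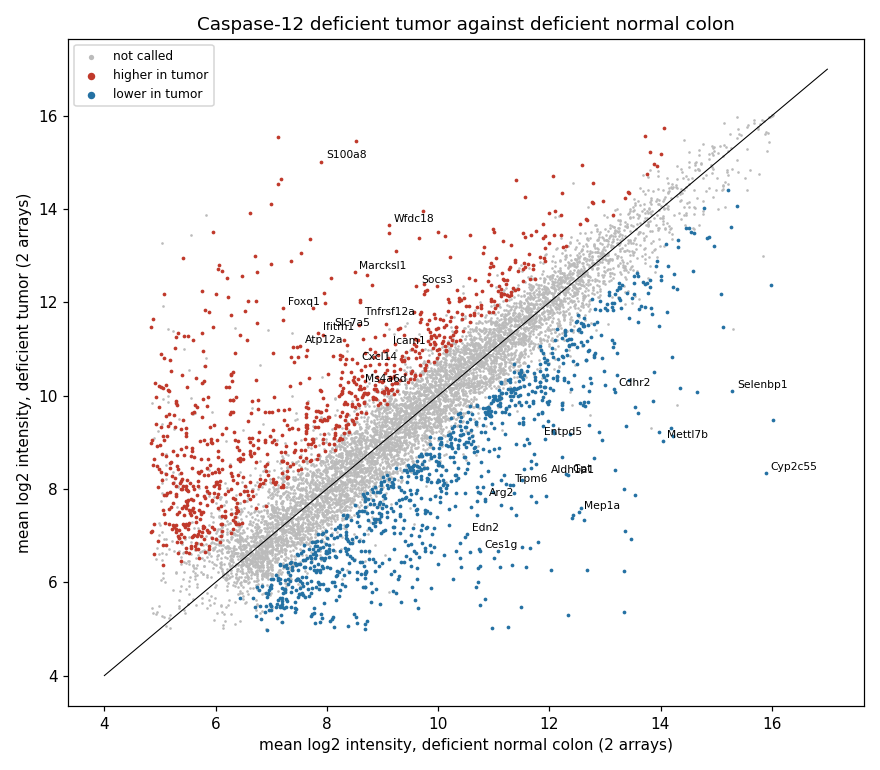
Mean log2 intensity of each of the 9341 genes in deficient normal colon (x axis, 2 arrays) and deficient tumor (y axis, 2 arrays), with the line of equality. The 881 genes called higher lie above the line, the 979 called lower below it, and the 24 genes of the text are named.

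Most genes of the interleukin-6 family rose in the deficient tumors, ligands and feedback inhibitor among them. Of 10 tested 9 rose and 0 fell, with a median of 1.74, or 1.48 with genes below background in a group at their bound. Of the 9, 2 were tested only through the deficient tumor arrays. The cytokine Il11 read 6.39 and 5.97 in deficient normal colon and 10.48 and 9.89 in deficient tumors, at least 10.4-fold higher (adjusted p = 0.000584). Oncostatin M (Osm) rose at least 5.24-fold, from 5.43 and 5.51 to 9.05 and 9.35. Il6 itself was dim, at 5.27 and 5.43 against 7.80 and 7.19, and rose at least 1.61-fold (adjusted p = 0.00285). In all 3 cytokines the tumor arrays were the only 2 of the 4 deficient arrays above background, and they did not overlap any other array.

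Downstream, Socs3, the inhibitor that STAT3 induces, read 9.28 and 9.93 in deficient normal colon and 12.42 and 12.27 in deficient tumors (2.74, SE 0.31, adjusted p = 0.00190). The oncostatin receptor Osmr rose by 1.51 and Stat3 by 1.24 (adjusted p = 0.0353 and 0.0328). Stat3 read 12.74 and 11.91 in the wild-type tumors, which overlapped the deficient tumors at 12.64 and 12.71. Between 5 and 8 of the 10 genes were called when 1 deficient array was left out, 5 without deficient normal replicate 2, and Il11, Osm, Socs3 and Il6 were called each time. In wild-type mice the median over the 10 genes was 0.04.

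Some acute phase and complement genes rose. Of 16 tested 7 rose and 0 fell (median 1.26). Haptoglobin (Hp) read 5.28 and 7.25 in deficient normal colon and 11.37 and 12.08 in deficient tumors (5.46, SE 1.05, adjusted p = 0.0125). Lipocalin 2 (Lcn2), which binds bacterial iron scavengers, rose by 4.03, serum amyloid A3 (Saa3) by 3.52 and orosomucoid (Orm1) at least 1.67-fold. Wild-type normal colon overlapped deficient normal colon for Hp and Saa3 but was brighter for Lcn2, at 10.27 and 8.79 against 7.48 and 8.43. Between 4 and 8 were called with 1 deficient array left out, 4 without deficient normal replicate 1.

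These rises stood beside a rise in markers of myeloid cells. Of 23 tested neutrophil, mast cell and macrophage genes 16 rose and 1 fell (median 2.22, or 0.90 with genes below background in a group at their bound). Of the 16, 2 were tested only through the deficient tumor arrays. Their summed level was 11.85 and 12.25 in deficient normal colon and 17.06 and 17.25 in deficient tumors. The wild-type arrays gave 13.62 and 13.14 in normal colon and 15.88 and 12.42 in tumors. The wild-type tumor array at 15.88 was replicate 1, which was also high in squamous markers (summed level 17.21 against 13.38 in replicate 2). High summed levels of the myeloid group thus went with high squamous levels, and the part of squamous epithelium in them was not tested. Without deficient normal replicates 1 or 2 the count was 8 each. Of the neutrophil secondary granule genes, Ltf rose, with a fitted difference of 8.42 (limma adjusted p = 0.0278), while Camp and Ngp were not above background on 2 arrays. The primary granule genes Mpo and Elane were not above background on 2 arrays either. S100a9 and Arg1 rose too, with fitted differences of 7.41 and 7.31. These fitted values are no bounds. Among the risers, Retnlg, a resistin-like neutrophil gene, read 4.94 and 5.10 against 10.70 and 11.10. Of 15 lymphocyte genes 3 rose, all B cell genes, and 0 fell, beside 9.43% of all genes called higher and 10.5% lower. The summed level of the lymphocyte group was 13.60 and 13.77 in deficient normal colon and 13.81 and 14.04 in deficient tumors. In whole tissue, fewer cells of a type and less RNA per cell cannot be told apart. The part of these cells in the cytokine, acute phase and regulatory results was not tested.

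Some regulators of immune responses rose too. Of 16 immune checkpoint and regulatory genes 7 rose and 0 fell (median 1.12, or 0.52 with genes below background in a group at their bound). Of the 7, 3 were tested only through the deficient tumor arrays. Ctla4, the inhibitory receptor of T cells, read 6.21 and 6.31 in deficient normal colon and 8.52 and 8.47 in deficient tumors, at least 3.2-fold higher (adjusted p = 0.00469). The T cell costimulatory receptors Tnfrsf4 and Tnfrsf18 rose at least 2.90-fold and 1.35-fold, and the checkpoint receptor Havcr2 at least 1.61-fold. Nt5e, the ectonucleotidase that makes adenosine, rose by 1.74 but was brightest in wild-type mice, at 13.29 or above. Cd274, which encodes the checkpoint ligand PD-L1, differed by 0.72 and did not pass (adjusted p = 0.174). In the group 1 rise was called without deficient normal replicate 1 and 3 without replicate 2, while Ctla4 was called each time.

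Antigen processing and MHC class I genes mostly did not pass. Of 22 tested, 2 rose and 2 fell (median 0.08), near the shares of all genes called higher (9.43%) and lower (10.5%). Nlrc5, the transactivator of class I genes, rose at least 3.06-fold and the lipid-presenting Cd1d1 by 1.48. The class I genes H2-T23 and H2-K1 fell by 1.01 and 0.95 (adjusted p = 0.0159 and 0.0453). Probes of such closely related genes may share transcripts. Between 0 and 1 rose and between 0 and 1 fell with 1 deficient array left out.

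A majority of the genes of regenerating epithelium rose. Of 17 markers of repair and of the YAP response, a programme by which injured gut epithelium regrows, 11 rose and 0 fell (median 1.51). Annexin A8 (Anxa8) read 5.95 and 5.81 in deficient normal colon and 11.36 and 12.24 in deficient tumors, at least 31.7-fold higher (adjusted p = 0.000659). It was 10.82 and 10.88 in wild-type normal colon, so deficient normal colon alone was low. Ly6d, which is also in the squamous group, rose by 5.92, annexin A1 (Anxa1) by 3.72 and Phlda1 by 2.77.

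Clusterin (Clu), a marker of revival stem cells, read 9.95 and 9.53 in deficient normal colon and 12.21 and 12.15 in deficient tumors (2.44, adjusted p = 0.00227). The wild-type tumors, at 12.11 and 12.42, overlapped them. Yap1, the transcriptional coactivator itself, rose by 0.84 (adjusted p = 0.0322). Between 5 and 9 of the 17 were called with 1 deficient array left out, 5 without deficient normal replicate 2, and Anxa8, Ly6d and Clu were called each time.

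Some crypt stem cell genes rose. Of 14 tested 6 rose and 1 fell (median 0.94). Of the 6, 2 were above background on all 4 deficient arrays and 3 were tested only through the deficient tumor arrays. The Wnt-amplifying receptor Lgr5 read 5.59 and 5.84 in deficient normal colon and 9.12 and 8.94 in deficient tumors, at least 4.64-fold higher (adjusted p = 0.00822). The RNA-binding protein Mex3a rose at least 3.68-fold, from 5.81 and 6.28 to 9.48 and 7.91. Ascl2, the transcription factor of crypt base stem cells, rose at least 2.07-fold, from 5.40 and 5.93 to 8.28 and 7.45. The deficient tumors lay above all other arrays for all 3.

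The receptor Tnfrsf19 rose by 2.08. Sox9 (1.05, adjusted p = 0.0980) and Cd44 (0.71, adjusted p = 0.195), which are broader progenitor markers, did not pass. Without deficient normal replicate 1 or 2, 0 and 1 rises were called in the group, and without deficient tumor replicate 1 or 2, 4 and 6. In wild-type mice the group median was −0.18.

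Ligands and antagonists of the BMP and activin pathway mostly did not pass. Of 22 tested 5 rose and 2 fell (median 0.51). Of all genes 9.43% were called higher and 10.5% lower, so the falls were near the share of all genes. Activin subunits were among the rises. Inhba read 5.89 and 5.25 in deficient normal colon and 9.92 and 9.34 in deficient tumors, at least 7.03-fold higher (adjusted p = 0.00164). Inhbb rose at least 3.64-fold. Bmp7 rose at least 4.70-fold. Bmp3, which opposes other BMPs, fell by 2.97, from 10.54 and 10.63 to 6.45 and 8.79. The BMP target Id1 differed by 0.61 (adjusted p = 0.118). With 1 deficient array left out, between 2 and 6 rose and between 0 and 3 fell, and Inhba and Inhbb were called each time.

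Of 13 Notch genes 5 rose and 0 fell (median 0.40), 1 of the 5 tested only through the deficient tumor arrays. Among all genes 9.43% were called higher and 10.5% lower. Hes6, which antagonizes the Notch effector Hes1, rose by 2.37, the receptors Notch4 and Notch1 by 1.78 and 1.61, and Mfng, a glycosyltransferase acting on Notch, by 1.31. Of these, Notch4 kept its call whichever deficient array was left out, and between 1 and 3 of the 13 passed in those fits. Of 4 Hedgehog genes tested, Hhip, a binding inhibitor of the ligands, fell at least 1.74-fold (called in 3 of the 4 fits without 1 deficient array, not without deficient normal replicate 2) and the colonocyte ligand Ihh differed by −1.30 (adjusted p = 0.214). Of 7 genes of the EGF receptor family and its ligands, betacellulin (Btc) rose by 1.57 (adjusted p = 0.0194), and it was called in 1 of the 4 fits that left out a deficient array, the one without tumor replicate 1. Egfr differed by 0.71 (adjusted p = 0.263) and Nrg1 by 1.5 (adjusted p = 0.166).

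Enzymes that break down prostaglandins fell, and so did an importer. Of 17 tested prostaglandin and leukotriene genes 3 rose and 4 fell (median −0.40), beside 9.43% of all genes called higher and 10.5% lower. Hpgd, the dehydrogenase that inactivates prostaglandin E2, read 12.81 and 13.47 in deficient normal colon and 10.79 and 11.31 in deficient tumors (−2.09, SE 0.30, adjusted p = 0.00444). The carbonyl reductases Cbr1 (−2.02) and Cbr3 (−2.75) and the prostaglandin importer Slco2a1 (−1.08) fell as well. The synthase Ptges rose by 0.96 (adjusted p = 0.0350). Alox12, a lipoxygenase also found in skin, rose at least 37.1-fold. Hpgd and Cbr1 were called each time 1 deficient array was left out. With 1 left out, the rises called ranged from 0, without deficient normal replicate 1 or 2, to 2, and the falls from 2 to 5.

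Transcription factors that specify intestinal epithelium fell in part. Of 22 tested 3 rose and 6 fell (median −0.21), beside 9.43% of all genes called higher and 10.5% lower. Of the 3 rises, 2 were tested only through the deficient tumor arrays. Cdx2, the homeobox factor of intestinal identity, read 13.62 and 13.56 in deficient normal colon and 8.66 and 10.61 in deficient tumors (−3.96, SE 0.58, adjusted p = 0.00483). Wild-type normal colon read 12.21 and 12.69 and the wild-type tumors 9.69 and 10.32, so the tumors of both genotypes lay below both normal groups. Isx, an intestinal homeobox factor, fell by 3.98. Hnf4a, the nuclear receptor that maintains enterocyte genes, fell by 1.34 from 13.94 and 13.57 to 12.46 and 12.37 (adjusted p = 0.00821). Cdx1 differed by −1.54 (adjusted p = 0.0565). Besides Foxq1, Onecut2 rose at least 4.73-fold, with tumor replicate 1 at 11.23 and replicate 2 at 6.88. With 1 deficient array left out, between 2 and 8 genes of the group were called lower and between 2 and 5 higher, and Cdx2 and Foxq1 were called each time.

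Several nuclear receptors that sense lipids, bile acids and vitamins fell. Of 19 tested 1 rose and 8 fell (median −0.87, against 0.10 in wild-type mice). The vitamin D receptor Vdr read 12.01 and 11.77 in deficient normal colon and 9.28 and 9.42 in deficient tumors (−2.54, SE 0.22, adjusted p = 0.000771). The 4 wild-type arrays read between 12.06 and 12.26 for Vdr, so the deficient tumors stood alone. Nr5a2 (LRH-1) fell at least 3.05-fold, from 8.11 and 7.98 to 4.99 and 5.34. Pparg, a receptor for fatty acids, fell by 2.52. The bile acid receptor Nr1h4 (FXR, −2.47), the xenobiotic receptor Nr1i2 (PXR, −2.12) and their shared partner Rxra (−1.70) fell too. Between 6 and 7 genes of the group were called lower with 1 deficient array left out. Vdr, Nr5a2, Pparg and Nr1i2 were called each time.

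The brush border, the carpet of microvilli on the absorptive surface, was lower across most of its genes. Of 22 tested 0 rose and 14 fell (median −1.28, against −0.10 in wild-type mice). Besides Mep1a and Cdhr2, Mep1b fell by 3.12 and Tmigd1, an adhesion molecule, differed by −4.79. The actin bundler espin (Espn) read 12.76 and 12.64 in deficient normal colon and 10.15 and 9.59 in deficient tumors (−2.83, SE 0.31, adjusted p = 0.00178). Villin (Vil1), the main bundler, fell by 1.18 from 13.59 and 13.19 to 12.51 and 11.92. For all 14 the deficient tumors lay below both wild-type normal arrays as well. Without deficient normal replicate 1 or 2, 8 and 7 were called, and without deficient tumor replicate 1 or 2, 13 and 12.

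Many carriers of the epithelium fell and fewer rose. Of 42 solute carriers tested 6 rose and 19 fell (median −0.88). Both subunits of the bile acid exporter fell: Slc51a at least 120-fold and Slc51b by 4.92. Slc13a2, a carrier of citrate cycle intermediates, read 12.64 and 12.50 in deficient normal colon and 6.07 and 9.11 in deficient tumors (−4.98, adjusted p = 0.00773), and the manganese exporter Slc30a10 fell at least 28.3-fold. Slc26a3, the chloride-bicarbonate exchanger mutated in congenital chloride diarrhoea, was dim and fell at least 1.41-fold. Slc7a11, the cystine importer, rose at least 12.8-fold, from 6.25 and 6.37 to 10.78 and 10.21 (adjusted p = 0.00934). Slc51a, Slc30a10 and Slc26a3 were called whichever deficient array was left out. In those fits between 8 and 17 carriers were called lower, 8 without deficient normal replicate 1 or 2, and between 2 and 5 higher.

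Of 15 water channels and carbonic anhydrases 1 rose and 6 fell (median −1.01). Carbonic anhydrase 2 (Car2), which feeds ion exchange with bicarbonate and protons, read 13 and 12.23 in deficient normal colon and 10.50 and 9.22 in deficient tumors (−2.76, adjusted p = 0.00988). Beside Aqp8, which differed by −6.55, the aquaporin Aqp11 fell by 3.59. Aqp9, a channel for water and glycerol found in leukocytes, was the 1 that rose, at least 2.13-fold and tested only through the deficient tumor arrays, from 5.24 and 5.01 to 7.85 and 7.96. Aqp3 did not pass, with 5.83 and 5.76 against 9.33 and 11.93, at least 14.1-fold (adjusted p = 0.0713), beside 11.21 and 5.69 in the wild-type tumors. Aqp8, Aqp9 and Aqp11 were called each time 1 deficient array was left out, and between 2 and 8 falls were called in those fits.

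Of 26 sodium and chloride channels, pumps and regulators 5 rose and 8 fell (median −0.49). Among all genes 9.43% were called higher and 10.5% lower. The hormone guanylin (Guca2a) read 15.97 and 16 in deficient normal colon and 11.48 and 13.29 in deficient tumors (−3.60, adjusted p = 0.0112), and its receptor Gucy2c fell at least 3.44-fold. The chloride channel Cftr, which that receptor activates, fell by 2.09. Hsd11b2, which shields the mineralocorticoid receptor from glucocorticoids, fell by 3.50. Fxyd4, a regulator of the sodium pump, rose at least 10.6-fold beside Atp12a. Of the 5 rises, 2 lay above both wild-type normal arrays as well. Fxyd4 read 9.53 and 5.84 in wild-type normal colon. With 1 deficient array left out, 3 or 4 rises and between 3 and 9 falls were called, 3 falls without deficient normal replicate 2.

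Of 25 claudins and junction genes 4 rose and 3 fell (median 0.10), shares of the group not far from the 9.43% and 10.5% of all genes. Cldn15, a claudin that passes sodium, read 12.87 and 12.72 in deficient normal colon and 7.68 and 9.63 in deficient tumors (−4.14, adjusted p = 0.00379). Occludin (Ocln) fell by 1.45. Cldn1 rose at least 3.14-fold, the desmosomal plakophilin Pkp1 by 2.89 and plakoglobin (Jup) at least 1.27-fold. Pkp1 is also in the squamous group, and 0 rises were called without deficient normal replicate 1 or 2, 5 without tumor replicate 1 and 1 without tumor replicate 2.

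Of 6 simple epithelial keratins 3 rose and 1 fell (median 0.73), beside 9.43% of all genes called higher and 10.5% lower. Krt23 read 8.64 and 9.61 in deficient normal colon and 14.01 and 12.94 in deficient tumors (4.36, adjusted p = 0.00258). Krt7, a keratin of ducts and transitional epithelium, rose by 1.81 and Krt18 by 1.25. Krt20, the keratin of the mature surface epithelium, fell by 2.02 from 14.19 and 14.41 to 11.74 and 12.82. Krt23 was called each time 1 deficient array was left out, while the fall of Krt20 was called only without tumor replicate 2.

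Genes of colonocyte fuel metabolism fell in part. Of 26 genes of the citrate cycle and of ketone body and butyrate metabolism 0 rose and 12 fell (median −0.72, against −0.07 in wild-type mice). Acads, the dehydrogenase of short-chain fatty acids such as butyrate, read 12.40 and 12.26 in deficient normal colon and 10.28 and 10.29 in deficient tumors (−2.04, SE 0.28, adjusted p = 0.00416). Hadh fell by 1.90, the succinate-CoA ligase subunit Suclg2 by 1.51, the ketone body enzyme Bdh1 by 1.33 and the gluconeogenic Pck1 at least 2.43-fold. The deficient tumors lay below both wild-type normal arrays for all 12. Without deficient normal replicate 1 or 2, 5 and 3 were called, and without deficient tumor replicate 1 or 2, 5 and 9.

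Subunits of the respiratory chain shifted little one by one. Of 58 tested 0 rose and 5 fell, a share near the background, with a median of −0.69 beside −0.67 in wild-type mice. Sdhb, a subunit of complex II, fell by 1.25 from 12.63 and 12.96 to 11.38 and 11.71 (adjusted p = 0.0190). The others were Atp5pb (−1.12), Cyc1 (−1.07), Sdhd (−0.99) and Uqcrc2 (−0.86). Without deficient normal replicate 1 or 2 or tumor replicate 1, 0 were called, and 2 of the group were called without tumor replicate 2. Of the 58, 17 had a fall at an unadjusted p under 0.05. Over all 13327 probes and both directions, 4556 had an unadjusted p under 0.05.

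Of 18 glycolysis genes 2 rose and 2 fell (median 0.15), shares near those of all genes (9.43% and 10.5%). Pkm, the pyruvate kinase of proliferating cells, rose by 1.36 from 12.56 and 13 to 14.27 and 14.01, and the glucose transporter Slc2a3 by 1.14. Hkdc1 fell at least 33.4-fold and the phosphofructokinase Pfkl differed by −1.07. Wild-type normal colon, at 13.72 and 13.87 for Pkm, lay above deficient normal colon. Of 17 hypoxia response genes 3 rose and 4 fell (median 0.20). The transcription factor subunit Hif1a rose by 1.92, the stress gene Ddit4 by 1.80 and the prolyl hydroxylase Egln3 by 1.14, while carbonic anhydrase 9 (Car9, −1.53) and Higd1a (−2.50) fell. Only 1 of those 3 rises lay above both wild-type normal arrays. With 1 deficient array left out, between 0 and 4 glycolysis and between 0 and 2 hypoxia rises were called, and for the falls 1 or 2 in each group.

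A minority of ribosome biogenesis genes passed, with small rises. Of 31 tested 12 rose and 0 fell (median 0.72, against 0.05 in wild-type mice). Gar1 and Nhp2, proteins of the H/ACA particles that modify ribosomal RNA, rose by 1.30 and 1.16, Nop56 by 1.26 and the nucleolar GTPase Gnl3 by 1.14. Fibrillarin (Fbl) read 11.64 and 11.43 in deficient normal colon and 12.48 and 12.44 in deficient tumors (0.93, adjusted p = 0.0310). Polr1a, the catalytic subunit of RNA polymerase I, rose by 1.06. The deficient tumors lay above both wild-type normal arrays for all 12. Without deficient normal replicate 1 or 2, 4 and 0 were called, and without deficient tumor replicate 1 or 2, 1 and 4.

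Sterol and fatty acid synthesis mostly did not pass. Of 23 tested 2 rose and 0 fell (median 0.26), the rises near the 9.43% of all genes called higher. The pair Abcg5 and Abcg8, which together export sterols, rose by 2.97 and at least 2.60-fold. Abcg5 read 6.35 and 7.16 in deficient normal colon and 9.60 and 9.84 in deficient tumors. The wild-type normal arrays read 10.44 and 8.80 and the wild-type tumors 11.97 and 11.60. Neither rise lay above both wild-type normal arrays, and with 1 deficient array left out between 0 and 3 genes of the group rose.

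About 1 in 3 genes of the basement membrane and of invasion passed, each with a rise. Of 33 laminins, integrins and invasion genes 12 rose and 0 fell (median 0.80, or 0.52 with genes below background in a group at their bound). The urokinase receptor Plaur read 7.49 and 7.38 in deficient normal colon and 8.85 and 9.12 in deficient tumors (1.55, SE 0.25, adjusted p = 0.00692), and its ligand urokinase (Plau) rose by 1.30. Tgfb1, a cytokine of matrix deposition, rose at least 2.60-fold, and the matrix protein Thbs2 by 1.94. The hemidesmosomal integrin Itgb4 rose by 1.49. Vimentin (Vim) rose by 1.11 and read 11.17 and 10.73 in the wild-type tumors, level with 11.22 and 10.83 in the deficient tumors. Without deficient normal replicate 1 or 2, 4 and 2 were called, and without either deficient tumor array 7. Of 14 smooth muscle genes 0 rose and 5 fell (median −1.05), with a summed level of 17.55 and 17.59 in deficient normal colon and 16.42 and 17.15 in deficient tumors. Of the smooth muscle genes 1, 0 and 1 were called lower without deficient normal replicate 1, deficient normal replicate 2 and deficient tumor replicate 1, and 12 without deficient tumor replicate 2.

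Regulators of cell death and the cell cycle mostly did not pass, where 9.43% of all genes were called higher and 10.5% lower. Of 30 apoptosis regulators 5 rose and 1 fell (median 0.16), 1 of the 5 tested only through the deficient tumor arrays. Apaf1, the scaffold of the apoptosome, read 9.71 and 10.15 in deficient normal colon and 11.96 and 11.55 in deficient tumors (1.83, adjusted p = 0.00655). Bok, a BCL-2 family effector, rose by 1.48 and the BH3-only Bcl2l11 by 1.71, while cytochrome c (Cycs) fell by 1.62. Casp8 differed by −0.36 (adjusted p = 0.401). Bok and Cycs were called each time 1 deficient array was left out, and between 1 and 6 rises passed in those fits. Of 21 p53 targets and cell cycle inhibitors 3 rose, 1 of them tested only through the deficient tumor arrays, and 1 fell (median 0.04). Plk2 rose by 2.21, Gadd45b by 1.25 and Cdkn2a at least 1.37-fold, Gadd45a fell by 1.18 and Cdkn1a differed by −0.67 (adjusted p = 0.162). None of the 21 was called without deficient normal replicate 1 or 2 or tumor replicate 1, and 4 rose without tumor replicate 2.

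Oxidant defence and retinoid genes went both ways, beside 9.43% of all genes called higher and 10.5% lower. Of 28 mucosal oxidant and antioxidant genes 4 rose, 1 of them tested only through the deficient tumor arrays, and 5 fell (median 0.04). Nqo1, a target of the factor NRF2, read 10.86 and 10.64 in deficient normal colon and 7.25 and 8.59 in deficient tumors (−2.83, adjusted p = 0.00451). Nfe2l2, which encodes NRF2, (−1.43), Srxn1 (−1.49) and the oxidase activator Noxa1 (−1.57) fell too. Heme oxygenase (Hmox1) rose by 2.26. The nitric oxide synthase Nos2 was above background on 1 of the 4 deficient arrays and differed by 0.32 (adjusted p = 0.673). Nqo1 was called each time 1 deficient array was left out. Between 0 and 3 rises, 0 without deficient normal replicate 2, and between 2 and 4 falls passed then.

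Of 19 retinoid genes 5 rose and 5 fell (median −0.15), and isoforms of 1 enzyme family moved in opposite directions. Aldh1a1 read 12.91 and 13.47 in deficient normal colon and 8.27 and 8.52 in deficient tumors, while Aldh1a3, which makes the same product, read 8.37 and 8.82 against 11.73 and 12.27 (3.41, adjusted p = 0.0163). The retinol importer Stra6 rose at least 13.1-fold, Adh7 at least 6.60-fold and the retinal reductase Rdh12 at least 4.54-fold. Retsat, a retinol saturase, fell by 2.45. Wild-type tumor replicate 1, the wild-type array with high squamous markers, read 11.25 for Adh7 and 11.60 for Aldh1a3, against 7.60 and 9.07 in wild-type tumor replicate 2. Aldh1a1, Retsat and Rdh12 were called each time 1 deficient array was left out. Between 1 and 4 rises, 1 without deficient normal replicate 1 or 2, and between 2 and 6 falls were called then.

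Of the 8 exocrine pancreas genes tested 4 rose and 0 fell (median 1.56). The pancreatic lipase relatives Pnliprp1 and Pnliprp2 rose at least 59.6-fold and by 5.31, the ribonuclease Rnase1 at least 17.2-fold and the trypsin inhibitor Spink1 by 2.63. Pnliprp1 read 13.94 and 11.48 in deficient tumors, 5.25 and 6.84 in deficient normal colon and 11.44 and 6.49 in wild-type normal colon. The defining acinar enzymes Cela2a, Cpa1, Cpb1, Ctrb1 and Prss2 were not above background on 2 arrays, and the summed level of the group was 15.99 and 16.26 in deficient tumors against 16.07 and 16.16 in deficient normal colon. With 1 deficient array left out between 0 and 3 rises were called. Of 5 blood and platelet genes 1 rose, Alas2 at least 4.24-fold and tested only through the deficient tumor arrays, with summed levels of 12.49 and 12.99 in deficient normal colon against 16.16 and 14.93 in deficient tumors. Of the fits that left out 1 of the 8 arrays, Alas2 was called only in those without deficient tumor replicate 1 or 2.

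**Figure D5:**
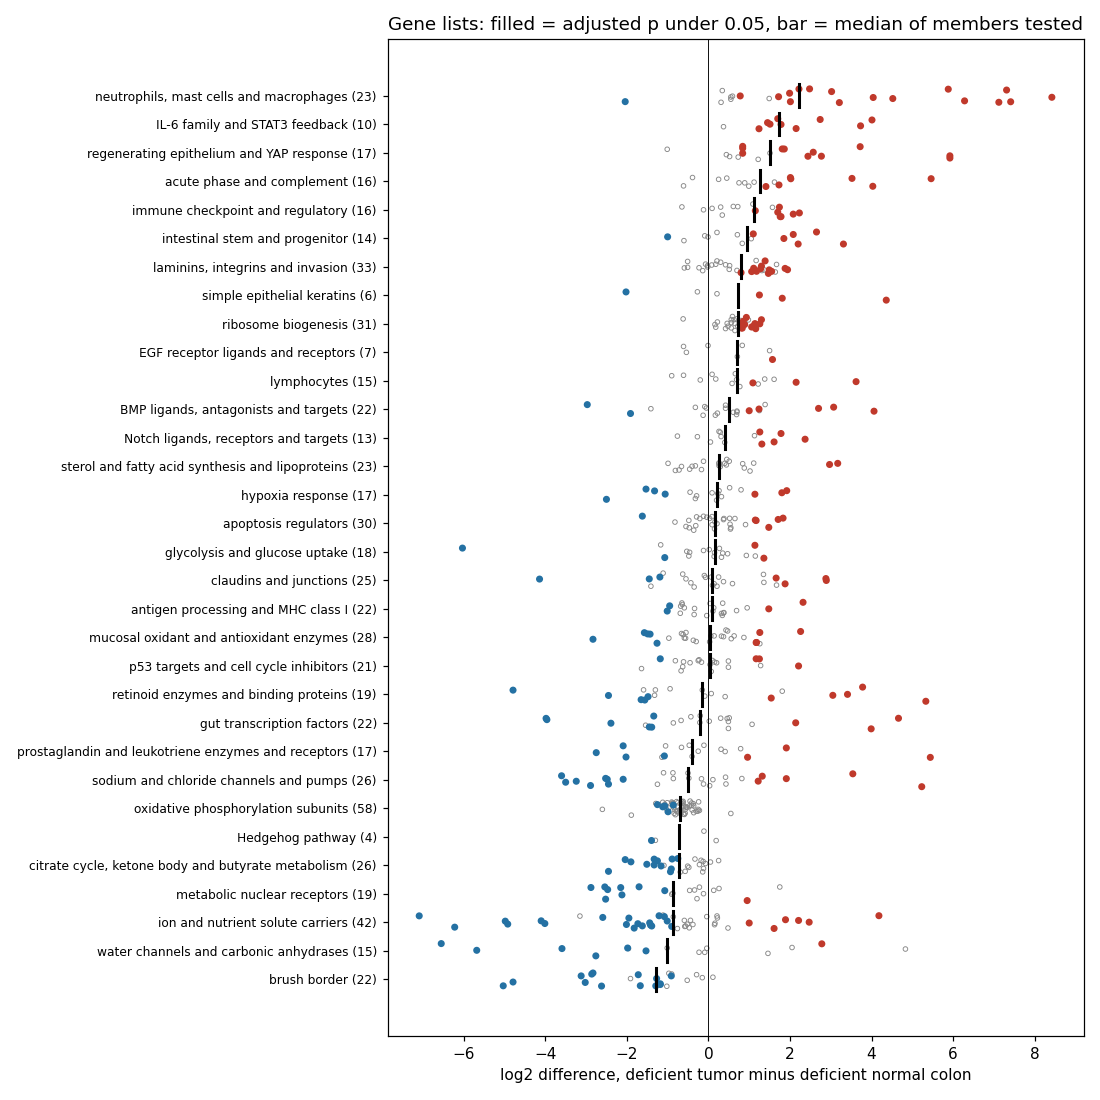
Log2 difference, deficient tumor minus deficient normal colon, of each tested member of 32 gene groups, 1 point per gene, with filled points for limma adjusted p under 0.05, red higher and blue lower, and a bar at the median of the fitted differences. The groups of markers of other tissues, such as squamous epithelium, are not drawn. Among the 32 drawn, myeloid and IL-6 family genes have the highest medians (2.22 and 1.74) and the brush border the lowest (−1.28). The number tested stands beside each name.

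The difference between genotypes was tested in the same model. Its wild-type side includes wild-type tumor replicate 2, which correlated more closely with wild-type normal colon (0.972 and 0.973) than with its fellow tumor array (0.945). Of the 9341 genes, the tumor minus normal difference, taken with its sign, was higher in the deficient mice for 162 (1.73%) and lower for 214 (2.29%). Of the 1860 genes called in the deficient mice, 361 also passed this test, 159 with a larger rise and 202 with a larger fall. All of the 24 leading genes passed except Foxq1 (adjusted p = 0.0505). They were chosen by their difference in the deficient mice, which is part of this test, so their passing gives no separate support. By group, 6 of 10 interleukin-6 family genes, 9 of 23 myeloid genes, 7 of 42 solute carriers and 4 of 19 nuclear receptors passed. In the respiratory chain, ribosome biogenesis and checkpoint groups 0 passed limma, and 3, 11 and 5 genes had an unadjusted p under 0.05. Because deficient normal colon enters both the tumor difference and this test, a gene in which deficient normal colon alone stands apart, as for Hoxb6 (−4.36, adjusted p = 0.01), passes as readily as one in which the deficient tumor does, as for Vdr (−2.53, adjusted p = 0.0106).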

How the data were processed

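The deposited non-normalized table holds the intensity of every probe on the 8 arrays, with a detection p-value beside it, per the file headers. BeadStudio 3.2.7 is named in the submitters' processing notes. A second deposited table held log2 values, equal within 1.71e-05 to the log2 intensity minus the log2 of each array's mean, and served as an alternative only. Mean intensity ran from 1112.5 to 1181.52 per array, and between 43.7% and 49.1% of probes were above background (detection p under 0.01). Of the probes, 23978 had 1 gene symbol and 1719 had none.

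The neqc function of limma 3.58.1 (R 4.3.3) subtracted background, added an offset of 16, quantile normalized and took log2. The tests took the probes detected above background on 2 or more of the 8 arrays. A model of the 4 group means was fitted to all 8 arrays, with 4 residual and 3.55 prior degrees of freedom. P-values are limma's and two-sided. They were adjusted over the 13327 probes (Benjamini-Hochberg) and called under 0.05. The procedure was tested on simulated data. The brightest tested probe, by mean over the 8 arrays, stands for its gene.

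The members and the 38 gene lists were chosen with earlier results of these data known. Of 1067 genes listed, 947 were on the array. Text names Casp12, the 12 rises and 12 falls with the largest moderated t among named genes that passed, were above background on all 4 deficient arrays and did not overlap, up to 4 called members of each list with the largest differences, and a few further members for their role. Hox genes, Trp63, Retnlg, Tnnc2 and the genes of the marker checks were chosen after their values were seen. Summed levels are log2 of summed linear intensities. The alternatives were leaving out the background correction, raising the offset to 50, scaling by the median or by cyclic loess, the deposited log2 values, other filters on dim probes, only the 4 deficient arrays, array weights, an intensity trend with a robust prior, a replicate block and leaving out each array.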

Additional observations from a re-analysis of the deposited data

Results flagged for a closer look

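Of the 204 genes named by list, rank or marker check, 66 are listed here because their tumor minus normal difference itself differed between genotypes (limma interaction, adjusted p from 0.00446 to 0.0464, 2 arrays in each of 4 groups). The values are deficient minus wild-type differences in log2 units, as fitted, and are no bounds where a gene was below background in a group. Of them 36 were higher and 30 lower in the deficient mice. Over all genes tested 1.73% were higher and 2.29% lower. Of the 204, 190 were called in the deficient mice, a difference that enters this test, so the choice of genes raises the count.

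Among cytokine, acute phase, myeloid and matrix genes, the difference was larger in deficient mice for S100a8 (8.79), S100a9 (8.73), Retnlg (6.69), Lcn2 (5.51), Il11 (5.12), Saa3 (4.40), Ifitm1 (4.03), Osm (3.49), Tnfrsf12a (3.05), Cxcl14 (2.98), Socs3 (2.92), Hmox1 (2.62), Aqp9 (2.46), Il6 (2.46), Plaur (2.01), Tgfb1 (1.96), Plau (1.88), Ms4a6d (1.69) and Icam1 (1.64). Among squamous, repair, stem and signalling genes it was larger for Lor (5.79), Calm4 (5.75), Anxa8 (4.77), Lgr5 (4.14), Krt23 (3.81), Inhba (3.61), Mex3a (3.39), Phlda1 (3.35), Hes6 (2.94) and Ascl2 (2.64). The rest of the larger differences were in Wfdc18 (6.5), Rnase1 (5.55), Marcksl1 (4.05), Atp12a (2.60), Slc7a5 (2.45), Apaf1 (1.98) and Bok (1.64).

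Among metabolic enzymes the difference was lower in deficient mice for Hadh (−1.76), Arg2 (−1.79), Hpgd (−2.42), Retsat (−2.52), Ces1g (−2.82), Entpd5 (−3.16), Gpt (−3.40), Mettl7b (−3.78), Aldh1a1 (−3.85), Selenbp1 (−5.27), Hkdc1 (−5.39) and Cyp2c55 (−6.91). Among transport and brush border genes it was lower for Slc26a3 (−2.19), Cdhr2 (−2.46), Aqp11 (−3.31), Trpm6 (−3.78), Mep1a (−5.01), Slc51a (−5.60) and Aqp8 (−5.84). Among nuclear receptors and Hox genes it was lower for Hoxb2 (−1.63), Pparg (−1.96), Nr1i2 (−2.12), Nr5a2 (−2.46), Vdr (−2.53), Hoxd4 (−3.70), Hoxb7 (−4.17) and Hoxb6 (−4.36). The last were Des (−1.81), Edn2 (−2.99) and Pln (−3.25). For the 4 Hox genes the deficient normal arrays lay above all 6 other arrays. The same held for Arg2, Ces1g and Aldh1a1, among others, and for S100a8, Atp12a and Marcksl1, among others, they lay below all 6. Deficient minus wild-type tumor was 0.45 for Arg2 and 0.38 for Ces1g and did not pass (limma adjusted p = 0.227 and 0.45). The values listed here are therefore not differences of the tumors alone. Position along the colon was not given, and its part in these differences was not tested.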

How the results depend on the processing

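Of the 190 called genes named, the calls of 74 held whichever of the 4 deficient arrays was left out, and none reversed under any of 21 alternatives. Against 1160 probes higher and 1421 lower, leaving out 1 array gave 299 to 1194 higher and 511 to 1521 lower, with 369 and 583 without deficient normal replicate 1, 299 and 511 without replicate 2, and 761 and 809 without deficient tumor replicate 1. For the genotype difference (206 probes higher in deficient mice, 315 lower) the ranges were 16 to 483 and 6 to 659, lowest without deficient normal replicate 2 and highest without deficient tumor replicate 2. Without wild-type tumor replicate 2, 105 probes passed in wild-type mice, against 0 in the other fits, of which the lowest range end is thus 0. The genotype difference counted 122 higher with the deposited values, 115 higher and 182 lower with no filter on dim probes, and 102 higher with probes above background on all 8 arrays, where the tumor comparison counted 709 higher. That filter tests fewer probes, and a left-out array leaves fewer arrays to fit. Some left-out arrays lowered the counts and others raised them. What moved the counts was not tested. Rises made up 44.9% of calls, but 55.8% with the deposited values, where all probes had a median difference of 0.114. Median scaling gave −0.104 and a share of 40.6%. Of the gene groups, the ribosome biogenesis rises were 6 of 31 with median scaling against 12, the respiratory chain falls 8 of 58 against 5 under the same scaling (9 from the deposited values), and the squamous rises 10 with no filter on dim probes against 22.

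Replicates of different groups shared only a number. The correlation of their deviations ran from −0.0311 to 0.161 over the 6 pairs of groups. With the replicate block 1233 probes were higher and 1417 lower, and 221 and 277 in the genotype difference. The slide as a block was not run because the files name no slides. Dim probes limit what can be said: for single genes below background on both arrays of 1 group the report gives bounds.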
